A study of Mus musculus with 16 samples.

Results

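Solute carriers are the membrane proteins that move amino acids, sugars, ions, metals, nucleosides and other small solutes across the plasma membrane and the membranes of organelles. The 114 genes described here were chosen by name and level: a symbol beginning Slc, a family number, the letter a and a member number, with the mitochondrial Slc25 family and Slc1a3 left out, and 4 or more of the 16 samples at a normalized count of 10 or above. They were 114 of the 10767 genes tested and of the 31053 genes in the table. Before the level filter 296 genes carried such a name, of which 182 fell below it and 87 of these had no read in any sample. The pattern also takes in 4 genes that are not carriers themselves, the scaffolds Slc9a3r1 and Slc9a3r2 and the genes Slc4a1ap and Slc7a6os, and it leaves out carriers with other letters or prefixes.

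The transcriptome was measured in C2C12, a mouse myoblast line that fuses into multinucleated myotubes in culture, in 4 groups of 4 samples. These were myoblasts and myotubes of the WT line, and myoblasts and myotubes of a Fam134b KO line. All groups were grown in DMEM with 10% FBS, the myotubes being the differentiated cells, and the labels give no day. The KO cells were made by lentiviral CRISPR-Cas9 with guide RNAs and drug selection. Whether the line is 1 clone is not given in the sources used here, so the effect of the deletion and differences between lines cannot be told apart. Samples were grouped by their titles, since the genotype field of the labels reads unknown throughout. The labels call the replicates biological without naming separate cultures, so the p-values measure the spread between these samples.

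As background, most solute carriers use the gradients of sodium, protons or the substrate itself to move their cargo, and several work only as pairs of a heavy and a light chain or with a chaperone that brings them to the surface. Skeletal muscle is known for its uptake of glucose, creatine, taurine and branched-chain amino acids and for its export of lactate. Amino acid carriers also feed the lysosomal sensing that controls growth, and zinc and iron carriers of the secretory pathway and endosomes set the metal supply of the cell.

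Levels are normalized counts, the reads of a gene divided by a factor of the sample. They are listed in the order of replicates 1 to 4, and a log2 fold change is on the log2(normalized count + 1) scale, which understates changes of low genes. Calls are at an adjusted p under 0.05 from limma with Benjamini-Hochberg adjustment over the 10767 genes, two-sided, in 1 model of the 16 samples. In these bulk samples, fewer expressing cells and less RNA per cell cannot be told apart. Where groups are said not to overlap, this is a common outcome over all genes tested. It held for 28.0% of them between WT stages and 27.4% between KO stages. Between genotypes it held for 26.8% in myoblasts and 19.4% in myotubes.

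The targeted gene Fam134b, an ER-phagy receptor, had 214, 251, 213 and 149.7 in WT myoblasts and 26.2, 24.9, 35.6 and 23.4 in KO myoblasts. WT myotubes had 287, 146, 263 and 232 and KO myotubes 31.9, 56.9, 50.4 and 27.97. It was lower in every KO sample than in any WT sample, though not at 0. Reads on genes ranged from 1484750 to 3287461 per sample, and KO myotubes replicates 2 and 4 were the shallowest, with 1790524 and 1484750. The 7 myotube markers (Myog, Myh3, Ckm, Acta1, Tnnt3, Mylpf and Tmem8c) had sums of 1582 to 2394 in WT myoblasts and, in WT myotubes, of 22121 to 34122. In KO myoblasts, where Myog had no read, their sums were 15.0 to 22.4, and in KO myotubes 9598 to 12650. The 5 myoblast markers (Myod1, Myf5, Des, Cdh15 and Pax7) summed to 1002 to 1485, 2697 to 3231, 262 to 366 and 889 to 1192 in the same order, and Pax7 had no read in the KO samples. Myod1, Des and Cdh15 were lower in every KO than in any WT myoblast sample, whereas Myf5 was higher, with 107 to 118 against 59.8 to 82.0. The summed adipogenic list lay between 34.0 and 78.4 in every sample, with Adipoq and Plin1 at 0 throughout. The macrophage list reached at most 24.2, with Adgre1 and Ptprc at 0, and the osteogenic and chondrogenic list at most 1.94, with Alpl and Ibsp at 0. The muscle markers thus differed between genotypes at each stage, and their part in the carrier differences was not tested.

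The level filter used the values of all samples, so a carrier high in a single group could pass through that group alone. A count of 10 was reached in all 4 groups by 99 members, in 3 groups by 5, in 2 groups by 7 and in 1 group by 3, namely Slc16a6 in WT myotubes, Slc1a6 in KO myoblasts and Slc6a2 in KO myotubes. The 7 that reached it in 2 groups were Slc22a5, Slc2a6, Slc5a5 and Slc7a7 in the myotubes of both genotypes, Slc39a10 in the myoblasts of both, and Slc6a15 and Slc6a17 in KO cells at both stages. For these 10 genes a difference between the groups that reached the count and those that did not was built into their choice, and their folds and tests between such groups are a description. The counts of calls given below, for all members and by substrate, include such calls. Just inside the filter, with 4 samples at 10 or more, were Slc16a6, Slc1a6, Slc22a5, Slc6a17 and Slc6a2. Among those just outside it, with 3 samples, were Slc16a10, Slc2a9 and Slc39a8. Slc2a4, the insulin-regulated glucose carrier of adult muscle, lay well below the filter, with 3.45, 1.799, 3.72 and 0.991 in WT myotubes and no read in KO myotubes. The sodium-calcium exchangers Slc8a1 and Slc8a3 and the bicarbonate cotransporter Slc4a4 also fell below it, Slc8a3 without a read in any sample.

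Many of the carriers were higher in myotubes than in myoblasts. In WT cells 41 of the 114 members were called higher in myotubes and 5 lower, against 13.8% of all genes tested called higher and 9.16% called lower, 23.0% in either direction. The median log2 fold change of the members was 0.65 against -0.01 over all genes, and 100 of the 114 values were positive. In KO cells 39 were called higher and 4 lower, against 17.3% and 16.1% of all genes and 33.4% in either direction. The median in KO cells was 0.48 against -0.02. Some of these calls were built into the choice of members. They were Slc5a5, Slc7a7 and Slc2a6 in both genotypes, Slc16a6 and Slc39a10 in WT cells, and Slc6a2 and Slc1a6 in KO cells. A set of 29 members was called higher on differentiation in both genotypes, among them Slc29a1, Slc4a7, Slc43a2, Slc40a1 and Slc30a7, and Slc16a11 and Slc9a3r1 were called lower in both. The share of all genes called in both genotypes was not counted, so no excess is read from the 29. The WT and KO counts both moved when samples were left out. The WT count fell to 27 higher and 3 lower without WT myotubes replicate 1, to 27 and 4 without WT myoblasts replicate 4 and to 29 and 4 without WT myoblasts replicate 3, and it rose to 52 and 5 without the shallow KO myotubes replicates 2 and 4. The KO count fell to 26 higher and 5 lower without KO myotubes replicate 1 and to 30 and 2 without KO myoblasts replicate 1.

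Fewer of them differed by genotype. In myoblasts 14 members were called higher in KO than in WT cells and 6 lower, against 7.26% and 8.50% of all genes, with a median of 0.13 against -0.01. In myotubes 12 were called higher and 13 lower, against 9.74% and 13.7% of all genes, and this balance shifted both ways with the processing. Quantile normalization gave 18 higher and 13 lower and scaling to equal totals 10 and 14. Without KO myotubes replicate 1 there were 10 higher and 18 lower, and without WT myotubes replicate 2 there were 9 and 17. In either direction, 15.8% of all genes were called in myoblasts and 23.4% in myotubes, and the shares of the members lay near these. Called higher in KO cells at both stages were Slc1a4, Slc1a6, Slc24a3, Slc40a1, Slc41a3 and Slc48a1, and called lower at both stages were Slc16a3, Slc22a15 and Slc9a3r2. The comparisons in myoblasts and in myotubes share no samples but come from the same fit. A further 43 members were called in none of the 4 comparisons, among them Slc38a1, Slc20a1, Slc20a2, Slc30a4, Slc39a14, Slc16a1 and Slc2a3. Shares of all genes called at both stages, or in none of the 4 comparisons, were not counted. Calls by genotype that were built into the choice of members were Slc1a6 in myoblasts, and Slc6a15, Slc6a2 and Slc16a6 in myotubes.

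**Figure D1:**
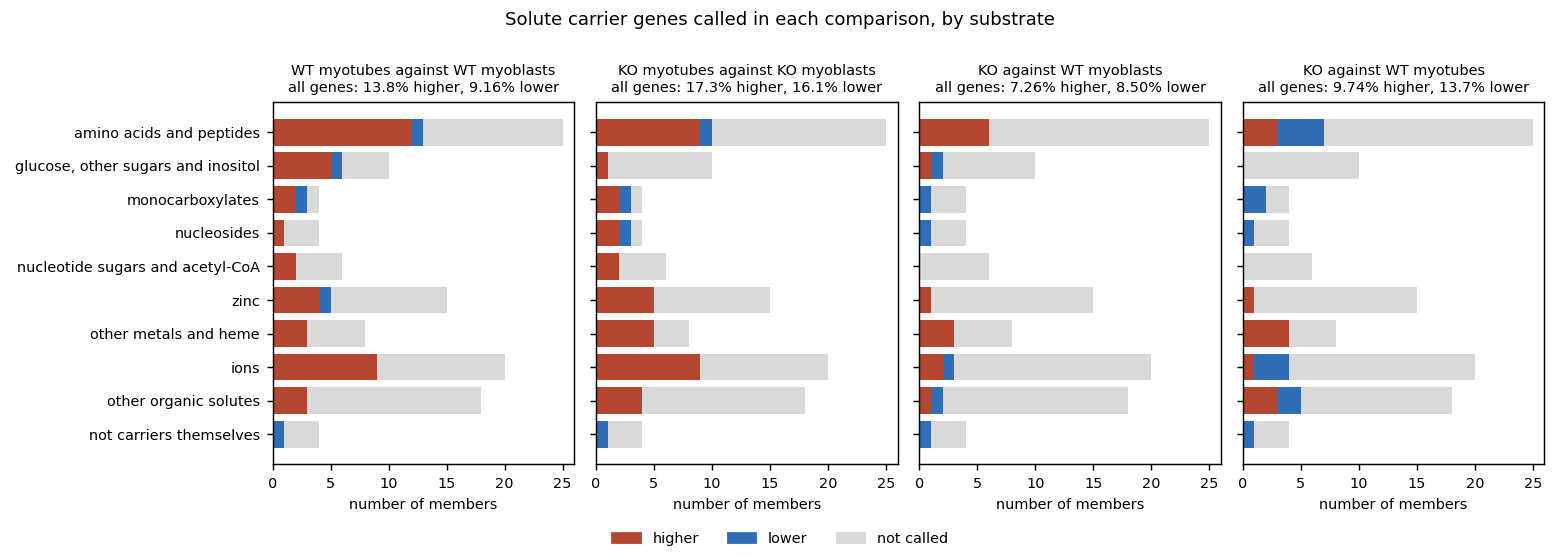
Number of members (horizontal axis) called higher (red), called lower (blue) and not called (grey) in each substrate group (vertical axis), with a panel for each of the 4 comparisons and the share of all genes called in the panel title. In WT myotubes 12 of 25 amino acid carriers, 5 of 10 sugar carriers and 9 of 20 ion carriers were called higher, and in KO against WT myoblasts 6 of 25 amino acid carriers and 3 of 8 carriers of other metals and heme.

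Amino acid carriers formed the largest group, with 25 members. Of these, 12 were called higher in WT myotubes than in WT myoblasts and 1 lower, with a median log2 fold change of 0.74, and leaving out 1 sample at a time gave 9 to 13 higher. In KO cells 9 were called higher (4 to 10 with a sample left out, 4 without KO myotubes replicate 1) and 1 lower, with a median of 0.27. In myoblasts 6 of the 25 were called higher in KO cells and none lower. There 3 lower values had an unadjusted p under 0.05 in limma. In myotubes 3 of the 25 were called higher in KO cells and 4 lower. Among all genes tested, 13.8% were called higher on differentiation and 9.16% lower in WT cells, and 17.3% and 16.1% in KO cells. By genotype, 7.26% of all genes were called higher in KO cells and 8.50% lower in myoblasts, and 9.74% and 13.7% in myotubes. The counts of 3 and 4 by genotype in myotubes lay near these shares. Some of the calls counted here were built into the choice of members. They were Slc7a7 on differentiation in both genotypes, Slc1a6 between KO stages and in KO against WT myoblasts, and Slc6a15 in KO against WT myotubes.

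Slc3a2 is the heavy chain that carries several amino acid exchangers to the surface. It had 219, 181, 155 and 126 in WT myoblasts and 734, 489, 457 and 399 in WT myotubes, a log2 fold change of 1.60 (SE 0.23, limma adjusted p = 4.58e-05). KO myoblasts had 372, 607, 399.9 and 359.6 and KO myotubes 999, 502, 709.8 and 573. Every KO myoblast sample thus lay above every WT myoblast sample, a difference of log2 1.34 (SE 0.23, limma adjusted p = 0.000237), and KO myotubes overlapped WT myotubes, with a log2 difference of 0.41 (95% interval -0.08 to 0.89). The rise on differentiation in KO cells was log2 0.66 (SE 0.23, limma adjusted p = 0.0334), a call lost without KO myoblasts replicate 1, 3 or 4, or KO myotubes replicate 1 or 3 (limma adjusted p of up to 0.133).

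Its light chain Slc7a5, which exchanges leucine and other large neutral amino acids, had 30.4, 20.3, 14.01 and 24.1 in WT myoblasts and 80.3, 52.2, 96.7 and 66.4 in WT myotubes. The WT groups did not overlap, with a log2 fold change of 1.71 (SE 0.30, limma adjusted p = 0.000306). In KO cells the values were 45.5, 37.4, 28.6 and 30.03 in myoblasts and 69.7, 36.5, 80.1 and 39.96 in myotubes, which overlapped, with a log2 difference of 0.61 (95% interval -0.01 to 1.23). Slc7a7, a light chain for cationic and neutral amino acids, had 1.85, 0.964, 1.001 and 0 in WT myoblasts and 25.9, 24.3, 37.2 and 28.7 in WT myotubes. No myoblast sample of either genotype had more than 3 reads, so it was at least 9.67-fold higher in WT myotubes and, with 25.2, 39.4, 13.5 and 7.99 in KO myotubes, at least 8.197-fold higher there. Slc7a7 reached a count of 10 only in myotubes, so these stage differences were built into its choice. Of the last 500 bases of its exons, 46.4% overlap Oxa1l on the other strand, and the strand setting of the count is not given in the sources used here.

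Slc7a11 (ENSMUSG00000027737, chr3:49892526-50443614, minus strand of GRCm38) is the light chain that exchanges cystine for glutamate and so supplies cysteine for glutathione. It had 17.5, 16.4, 6.004 and 7.13 in WT myoblasts and 31.5, 47.3, 57.3 and 27.5 in KO myoblasts. All KO samples were above all WT samples at this stage, with a log2 difference of 1.79 (SE 0.43, limma adjusted p = 0.00586). In myotubes the values were 47.5, 17.1, 26.95 and 24.8 in WT and 31.9, 27.7, 29.7 and 7.99 in KO samples. They overlapped there, the KO value of replicate 4 being the lowest, and the difference was log2 -0.32 (95% interval -1.22 to 0.58). Its WT rise on differentiation, a log2 difference of 1.28 (SE 0.43, limma adjusted p = 0.0382), was lost without WT myoblasts replicate 3 or 4, or WT myotubes replicate 1, 3 or 4 (limma adjusted p of up to 0.148).

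The neutral amino acid carrier Slc1a4 (alanine, serine and cysteine) had 70.1, 72.3, 57.04 and 37.4 in WT myoblasts and 141, 80.5, 206 and 131 in KO myoblasts. No KO sample fell within the WT range, with a difference of log2 1.19 (SE 0.26, limma adjusted p = 0.00265). It rose to 174, 121, 161 and 129 in WT myotubes, a log2 fold change of 1.31 (SE 0.26, limma adjusted p = 0.00109). KO myotubes had 323, 276, 174 and 224, a log2 difference of 0.87 (SE 0.26, limma adjusted p = 0.0147), a call lost without KO myoblasts replicate 2, or KO myotubes replicate 1 (limma adjusted p of up to 0.0615). The KO difference in myotubes, a log2 difference of 0.75 (SE 0.26, limma adjusted p = 0.0442), lost its call in 9 of the 16 fits with a sample left out (limma adjusted p of up to 0.126, without KO myotubes replicate 1). Slc1a5, the related glutamine carrier, had 47.98, 68.5, 54.04 and 34.8 in WT myoblasts and 156, 93.6, 121 and 92.1 in WT myotubes, without overlap and with a log2 difference of 1.16 (SE 0.27, limma adjusted p = 0.00366). KO cells had 86.6, 48.1, 113 and 81.8 before and 90.04, 65.7, 53.98 and 87.9 after differentiation, which overlapped, with a log2 difference of -0.11 (95% interval -0.67 to 0.45).

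Slc7a11 and Slc1a4 are shown here with the 300 bases around their RefSeq start sites. Among members called higher in KO myoblasts, they are those whose windows held a match to the motif marked below. They thus do not stand for the other members called there. Each run covers 250 bases before to 50 after the start, in the direction of the gene, on GRCm38.p6. Capitals mark matches on either strand to TGATGNAAN, the core of the C/EBP-ATF response element.
Slc7a11, chr3:50443564-50443863, minus strand: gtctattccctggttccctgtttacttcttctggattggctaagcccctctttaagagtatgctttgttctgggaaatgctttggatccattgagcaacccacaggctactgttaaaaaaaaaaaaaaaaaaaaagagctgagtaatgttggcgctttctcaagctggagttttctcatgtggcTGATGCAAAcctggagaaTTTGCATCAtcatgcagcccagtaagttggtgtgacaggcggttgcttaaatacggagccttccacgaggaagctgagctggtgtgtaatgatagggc
Slc1a4, chr11:20332664-20332963, minus strand: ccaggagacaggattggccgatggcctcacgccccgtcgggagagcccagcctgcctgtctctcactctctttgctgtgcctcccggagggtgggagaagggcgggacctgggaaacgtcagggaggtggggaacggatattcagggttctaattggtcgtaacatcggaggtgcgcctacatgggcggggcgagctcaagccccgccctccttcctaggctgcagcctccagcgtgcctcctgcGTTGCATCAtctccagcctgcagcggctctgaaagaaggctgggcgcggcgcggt
The Slc7a11 window held 2 matches and the Slc1a4 window 1. These letters occurred in 3.95% of all 32851 RefSeq promoter windows and in 6 of the 121 windows of the 87 members that matched by symbol. The members holding them were Slc7a11, Slc1a4, Slc7a7, Slc50a1 and Slc9a9. Of these, Slc7a11 and Slc1a4 were 2 of the 10 members with a window that were called higher in KO myoblasts. Slc6a9, another of the 10, held no match. Slc9a9 was called lower in KO myoblasts, and Slc7a7 and Slc50a1 were not called by genotype. The metal response element core TGCNCNC was in 51.0% of all windows and in 58.7% of the members' windows, and the E-box CAGCTG in 16.3% and 20.7%, both strands searched and overlaps between motifs allowed. A match is a description of letters and not of binding.

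Slc6a9, the glycine carrier, had 62.7, 54.97, 46.03 and 29.4 in WT myoblasts and 109, 148, 141 and 132 in KO myoblasts, higher in each KO sample, with a log2 difference of 1.48 (SE 0.25, limma adjusted p = 0.000193). In WT myotubes it had 199, 162, 162 and 89.2, a log2 rise of 1.64 (SE 0.25, limma adjusted p = 8.16e-05). KO myotubes had 282, 177, 172 and 179.8. All 31-base stretches of the last 500 bases of its longest coding transcript also occur in Ccdc24, which lies on the opposite strand. With the exons of all its transcripts joined, 27.8% of the bases overlap Ccdc24, but 0% of the last 500. Reads of the pair may thus not be separable, depending on the transcript end used. Slc1a6, a glutamate carrier best known from neurons, had at most 3 reads in every WT sample and 25.4, 11.6, 33.8 and 20.9 in KO myoblasts, at least 7.63-fold higher, a difference built into its choice. KO myotubes had 6.78, 8.76, 1.799 and 9.99, at least 2.298-fold above WT myotubes, a call lost without KO myotubes replicates 2 and 4. Slc38a7, a lysosomal glutamine exporter, had 79.4, 56.9, 54.04 and 51.7 in WT and 122, 84.7, 117 and 92.6 in KO myoblasts, with a log2 difference of 0.78 (SE 0.20, limma adjusted p = 0.00941).

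Slc38a9, Slc15a4, Slc43a2 and Slc7a2 were called higher on differentiation in both genotypes. Slc38a9, the lysosomal arginine sensor upstream of mTORC1, had 42.4, 22.2, 16.01 and 17.8 in WT myoblasts and 87.2, 44.98, 63.2 and 46.6 in WT myotubes, with a log2 difference of 1.32 (SE 0.36, limma adjusted p = 0.0108). Replicate 1 of the myoblasts came close to the lowest myotube sample, and without WT myotubes replicate 1 the limma adjusted p was 0.0517. In KO cells it went from 25.4, 9.13, 23.4 and 18.4 to 55.2, 26.3, 33.3 and 45.96, with a log2 difference of 1.07 (SE 0.36, limma adjusted p = 0.0243), a call lost without KO myoblasts replicate 2, or KO myotubes replicate 1 or 4 (limma adjusted p of up to 0.0921). Slc15a4, a lysosomal carrier of histidine and peptides, rose by log2 0.95 (SE 0.27, limma adjusted p = 0.0143) in WT cells, lost without WT myoblasts replicate 4, or WT myotubes replicate 1 (limma adjusted p of up to 0.0532), and by log2 0.92 (SE 0.27, limma adjusted p = 0.0122) in KO cells, lost without KO myotubes replicate 1 (limma adjusted p = 0.0508). Slc43a2, an exporter of neutral amino acids, had 25.8, 32.8, 21.02 and 12.5 in WT myoblasts and 70.8, 68.4, 78.1 and 79.3 in WT myotubes. KO myoblasts had 15.7, 9.13, 14.7 and 15.02 and KO myotubes 50.3, 51.1, 35.1 and 51.95. The stages did not overlap, with log2 fold changes of 1.72 (SE 0.28, limma adjusted p = 0.000155) in WT and log2 1.72 (SE 0.28, limma adjusted p = 7.33e-05) in KO cells. Slc7a2, an arginine and lysine carrier, had 0, 10.6, 5.004 and 3.56 in WT myoblasts and 36.3, 12.6, 16.7 and 22.8 in WT myotubes. KO myoblasts had 4.37, 4.98, 6.94 and 2.503 and KO myotubes 71.6, 32.1, 31.5 and 47.96. The stages were apart in both genotypes, with a log2 difference of 2.35 (SE 0.56, limma adjusted p = 0.00444) in WT and log2 3.02 (SE 0.56, limma adjusted p = 0.000272) in KO cells.

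Called lower in KO than in WT myotubes were Slc7a1, Slc6a6, Slc38a6 and Slc36a4. The arginine carrier Slc7a1 had 156, 139, 212 and 137 in WT and 76.5, 49.6, 89.1 and 87.9 in KO myotubes, without overlap, a difference of log2 -1.09 (SE 0.26, limma adjusted p = 0.00393). Slc6a6, the taurine carrier, had 559, 340, 608 and 421 in WT against 348, 273, 220.4 and 148 in KO myotubes, where KO replicate 1 lay just inside the WT range, with a log2 difference of -0.99 (SE 0.27, limma adjusted p = 0.00995), lost without KO myotubes replicates 2 and 4. Slc38a6 and Slc36a4 differed by log2 -1.36 (SE 0.26, limma adjusted p = 0.000796) and log2 -0.87 (SE 0.30, limma adjusted p = 0.0386), and the call of Slc36a4 was lost without KO myotubes replicate 1 or 3, or WT myotubes replicate 1, 3 or 4 (limma adjusted p of up to 0.105). Of the 31-base stretches at the end of the Slc38a6 transcript 51.5% also occur in Gm42860, so its count is uncertain. The glutamine carrier Slc38a2 had 676 to 1344 in WT myoblasts and 1021 to 1776 in WT myotubes, ranges that overlapped, with a log2 difference of 0.43 (95% interval -0.02 to 0.88). In KO cells its rise was log2 0.70 (SE 0.22, limma adjusted p = 0.0165), lost without KO myoblasts replicate 1, or KO myotubes replicate 1 (limma adjusted p of up to 0.0626). Slc6a15, a carrier of branched-chain amino acids, had 0, 3.598, 1.86 and 1.98 in WT and 26.1, 14.6, 11.7 and 9.99 in KO myotubes, every KO sample higher, with a log2 difference of 2.64 (SE 0.46, limma adjusted p = 0.000279). It reached a count of 10 only in KO cells, so this difference was built into its choice.

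**Figure D2:**
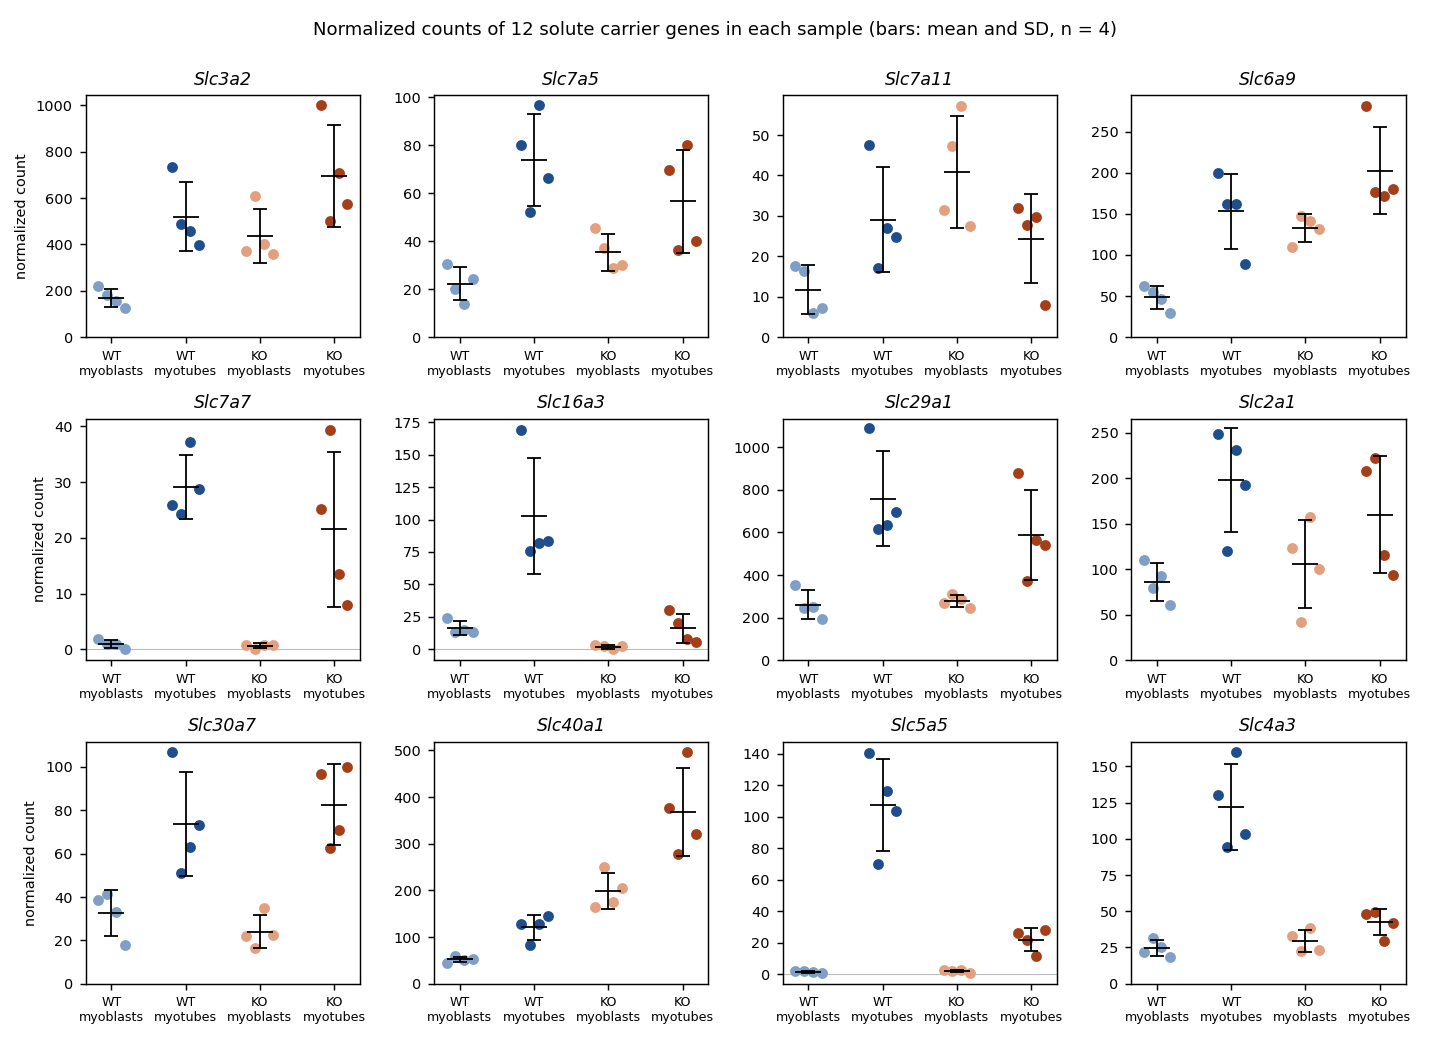
Normalized counts (vertical axis, each panel on its own scale from 0) of 12 carrier genes in the 16 samples; points are samples, and bars give the mean and SD of the 4 samples of WT myoblasts, WT myotubes, KO myoblasts and KO myotubes. Slc5a5 and Slc4a3 are highest in WT myotubes, Slc16a3 is lower in the KO group of each stage, and Slc40a1 is higher in the KO group of each stage.

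The share of all genes called higher on differentiation was 13.8% in WT and 17.3% in KO cells, and called lower 9.16% and 16.1%. Of the 10 carriers of glucose, other sugars and inositol, 5 were called higher in WT myotubes and 1 lower, with a median log2 fold change of 1.01, and 1 was called higher in KO cells, with a median of 0.17. A difference between the genotypes in the change was called for none of them (1 had an unadjusted p under 0.05), and leaving out a sample gave 2 to 5 higher in WT cells, with 2 without WT myoblasts replicate 4 or WT myotubes replicate 3 and 3 without WT myotubes replicate 1. Slc2a1, the basal glucose carrier, had 111, 80.05, 93.1 and 60.6 in WT myoblasts and 249, 119.6, 230.5 and 192 in WT myotubes, with replicate 2 of the myotubes the nearest to the myoblasts. Its log2 fold change was 1.17 (SE 0.34, limma adjusted p = 0.0183), lost without WT myoblasts replicate 4, or WT myotubes replicate 1 or 3 (limma adjusted p of up to 0.0686). KO myoblasts had 123, 42.3, 158 and 100.1 and KO myotubes 208, 222, 116 and 93.9, which overlapped, with a log2 difference of 0.65 (95% interval -0.07 to 1.36).

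Slc2a6 and Slc2a8 are glucose carriers of intracellular vesicles. Slc2a6 had 1.85, 4.82, 3.002 and 3.56 in WT myoblasts and 27.6, 16.2, 28.8 and 30.7 in WT myotubes, a log2 difference of 2.65 (SE 0.43, limma adjusted p = 0.000164). KO myoblasts had 1.75, 0.8301, 0.868 and 5.01 and KO myotubes 11.6, 16.1, 15.3 and 9.99, a log2 difference of 2.35 (SE 0.43, limma adjusted p = 0.000275). Both genotypes separated the stages fully, but Slc2a6 reached a count of 10 only in myotubes, so these stage differences were built into its choice. It was also the only sugar carrier called higher in KO cells on differentiation. Slc2a8 had 32.3, 23.1, 28.02 and 18.7 in WT and 45.5, 57.3, 63.3 and 46.7 in KO myoblasts, all KO samples higher, with a log2 difference of 1.04 (SE 0.27, limma adjusted p = 0.00845). The myo-inositol carrier Slc5a3, which responds to osmotic stress in many cells, ran the other way. It had 123, 204, 139 and 93.6 in WT myoblasts against 64.8, 62.97, 49.3 and 71.3 in WT myotubes, a log2 difference of -1.12 (SE 0.23, limma adjusted p = 0.00143). KO myoblasts had 66.5, 58.1, 57.3 and 50.9, a log2 difference of -1.20 (SE 0.23, limma adjusted p = 0.000664) from WT. The WT myoblasts stood above the other 3 groups in every sample.

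Among the 4 monocarboxylate carriers the lactate exporter Slc16a3 (ENSMUSG00000025161, chr11:120948480-120960868, plus strand) differed by both stage and genotype. It had 23.99, 13.5, 15.01 and 13.4 in WT myoblasts and 169, 75.6, 81.8 and 83.2 in WT myotubes, where replicate 1 was far above the rest. In KO myoblasts it had 3.5, 2.49, 0 and 2.503 and in KO myotubes 30.01, 20.4, 8.097 and 5.99. KO myotubes thus overlapped the undifferentiated WT cells and lay below every WT myotube sample. The log2 differences from WT were -2.64 (SE 0.49, limma adjusted p = 0.000487) in myoblasts and log2 -2.77 (SE 0.49, limma adjusted p = 0.000338) in myotubes. The changes on differentiation were log2 2.52 (SE 0.49, limma adjusted p = 0.000866) in WT and log2 2.40 (SE 0.49, limma adjusted p = 0.000778) in KO cells. The difference between those changes was log2 -0.13 (95% interval -1.57 to 1.32). The KO myoblast samples and KO myotubes replicate 4 lay at or near the floor of 3 reads, where the log2 scale used understates changes. Slc16a1, which takes up lactate and pyruvate, had 17.01 to 31.8 in WT and 9.96 to 18.2 in KO myoblasts. Its myotube ranges were 17.99 to 62.2 in WT and 9.99 to 29.7 in KO samples, and it was called in no comparison.

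Slc16a6, which transports ketone bodies and taurine, had 10.4, 14.4, 16.7 and 13.9 in WT myotubes and at most 3 reads in every myoblast sample. It was at least 4.61-fold higher in WT myotubes, the only group to reach a count of 10, so this difference was built into its choice. KO myotubes had 1.94, 0, 7.197 and 1.998, at least 1.06-fold above KO myoblasts, and that call was lost in 15 of the 16 fits with a sample left out (limma adjusted p of up to 0.177, without KO myotubes replicate 3). Slc16a11 moved against the others, with 163, 132, 127 and 138 in WT myoblasts and 75.1, 85.5, 56.7 and 70.3 in WT myotubes. Each WT myotube sample was lower, with a log2 difference of -0.96 (SE 0.29, limma adjusted p = 0.0194), a call lost without WT myoblasts replicate 1, or WT myotubes replicate 3 (limma adjusted p of up to 0.0629). In KO myoblasts it had 157, 165, 154 and 142 and in KO myotubes 108, 124, 89.1 and 31.97, with a log2 difference of -0.96 (SE 0.29, limma adjusted p = 0.0134).

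Of 4 nucleoside and nucleobase carriers, Slc29a1, the equilibrative carrier that brings in adenosine and other nucleosides, rose with differentiation in both genotypes. It had 355, 245, 252 and 192 in WT myoblasts and 1089, 617, 633 and 695 in WT myotubes, a log2 difference of 1.53 (SE 0.23, limma adjusted p = 6.90e-05). KO myoblasts had 271, 310.5, 288 and 245 and KO myotubes 879, 371, 564 and 542, a log2 difference of 1.01 (SE 0.23, limma adjusted p = 0.00206). Myotubes were above myoblasts in every sample of each genotype. Slc29a2, another equilibrative carrier, had 41.5, 19.3, 32.02 and 26.7 in WT and 16.6, 10.8, 17.4 and 8.34 in KO myoblasts, lower in each KO sample, with a log2 difference of -1.12 (SE 0.32, limma adjusted p = 0.0202), lost without KO myoblasts replicate 2 or 4, or WT myoblasts replicate 1 or 3 (limma adjusted p of up to 0.08304). The purine nucleobase carrier Slc43a3 had 25.04, 16.2, 27.9 and 23.8 in WT and 0.968, 10.2, 3.599 and 3.996 in KO myotubes, all KO samples lower, with a log2 difference of -2.33 (SE 0.46, limma adjusted p = 0.00101). The lysosomal carrier Slc29a3 was called in no comparison.

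Zinc carriers counted 15 members, the Slc30 family that moves zinc out of the cytosol and the Slc39 family that moves it in. On differentiation 4 were called higher and 1 lower in WT cells (median 0.64) and 5 higher in KO cells (median 0.55). Of all genes, 13.8% and 17.3% were called higher. With a sample left out the WT count ran from 2 to 7, near that share at 2 without WT myoblasts replicate 3 or 4 or WT myotubes replicate 1 or 4, and the KO count from 3 to 6. The count of 3 in KO cells was without KO myoblasts replicate 1 or 4 or KO myotubes replicate 1 or 2. Slc30a7, which loads the Golgi and secretory pathway, had 38.8, 41.5, 33.02 and 17.8 in WT myoblasts and 107, 51.3, 63.2 and 73.3 in WT myotubes, with a log2 difference of 1.16 (SE 0.30, limma adjusted p = 0.00774). KO myoblasts had 21.9, 16.6, 34.7 and 22.5 and KO myotubes 96.8, 62.7, 71.1 and 99.9, again without overlap, with a log2 difference of 1.77 (SE 0.30, limma adjusted p = 0.000104). The surface exporter Slc30a1 had 23.99, 29.9, 8.01 and 20.5 in WT myoblasts and 56.98, 32.4, 33.5 and 36.7 in WT myotubes, a log2 difference of 1.02 (SE 0.35, limma adjusted p = 0.0381), lost without WT myoblasts replicate 3 or 4, or WT myotubes replicate 1, 3 or 4 (limma adjusted p of up to 0.171). In KO cells its rise was log2 0.93 (SE 0.35, limma adjusted p = 0.04301), lost in 8 of the 16 fits with a sample left out (limma adjusted p of up to 0.123, without KO myotubes replicate 1).

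Slc39a13 releases zinc from the secretory pathway and vesicles. In KO cells it went from 122, 150.3, 160.5 and 152 to 491, 387, 318 and 339.7, with a log2 difference of 1.37 (SE 0.20, limma adjusted p = 1.60e-05). KO myotubes lay above every WT myotube sample (279, 161, 151 and 169), with a log2 difference of 1.04 (SE 0.20, limma adjusted p = 0.000629). In WT cells the rise from 121, 149, 112 and 109.6 was log2 0.59 (SE 0.20, limma adjusted p = 0.0353), lost without WT myoblasts replicate 1, 3 or 4, or WT myotubes replicate 1 or 4 (limma adjusted p of up to 0.159). Slc39a11 rose in both genotypes, with a log2 difference of 0.77 (SE 0.21, limma adjusted p = 0.0132) in WT and log2 1.15 (SE 0.21, limma adjusted p = 0.000306) in KO cells. Its WT call was lost without WT myoblasts replicate 2 (limma adjusted p = 0.0509). Slc39a3 had 33.2, 30.9, 38.03 and 31.2 in WT and 46.4, 63.9, 64.2 and 79.3 in KO myoblasts, higher in each KO sample, with a log2 difference of 0.89 (SE 0.23, limma adjusted p = 0.00939). Slc30a4, by contrast, stayed between 184 and 302 over the 16 samples and was called nowhere, as was Slc39a14. For Slc39a7 the last 500 bases are shared in full with the readthrough gene Gm20427 on the same strand, so its count is uncertain.

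Of the 8 carriers of other metals and heme, 3 were called higher in KO than in WT myoblasts and 4 in KO than in WT myotubes, none lower at either stage (0 with an unadjusted p under 0.05 in limma). Over all genes, 7.26% were called higher and 8.50% lower in KO myoblasts, and 9.74% and 13.7% in KO myotubes. With 8 members, each count rests on few genes. Leaving out a sample gave 2 to 3 and 3 to 4 higher. Their medians were 0.63 in myoblasts and 0.50 in myotubes. Slc40a1 (ENSMUSG00000025993, chr1:45908068-45926523, minus strand), ferroportin, the iron exporter of the cell, had 45.2, 58.8, 50.04 and 53.5 in WT myoblasts and 164, 249.9, 175 and 206 in KO myoblasts. In myotubes it had 129, 82.8, 128 and 145 in WT and 376, 277, 496 and 322 in KO samples. The 4 groups did not overlap, with KO above WT by log2 1.90 (SE 0.21, limma adjusted p = 5.62e-07) in myoblasts and log2 1.59 (SE 0.21, limma adjusted p = 1.41e-05) in myotubes. Its rises on differentiation were log2 1.18 (SE 0.21, limma adjusted p = 0.000319) in WT and log2 0.87 (SE 0.21, limma adjusted p = 0.00285) in KO cells.

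Slc48a1, which moves heme out of endosomes and lysosomes, had 641, 533, 733 and 704 in WT and 1167, 1357, 1125 and 1311 in KO myoblasts, a log2 difference of 0.93 (SE 0.20, limma adjusted p = 0.00243). In myotubes it had 325, 744, 541 and 500.3 in WT and 961, 1338, 1086 and 1505 in KO samples, a log2 difference of 1.25 (SE 0.20, limma adjusted p = 0.000151), with every KO sample above every WT sample at both stages. Slc41a3, a magnesium carrier of the mitochondrial membrane, had 0.863, 8.096, 2.79 and 16.8 in WT and 93.9, 51.1, 53.98 and 49.96 in KO myotubes, without overlap, with a log2 difference of 3.39 (SE 0.55, limma adjusted p = 0.000144). In myoblasts it had 4.61, 5.79, 2.001 and 2.67 in WT and 11.4, 32.4, 10.4 and 10.01 in KO samples, with a log2 difference of 1.74 (SE 0.55, limma adjusted p = 0.03396), a call lost without KO myoblasts replicate 1 or 2, or WT myoblasts replicate 1, 3 or 4 (limma adjusted p of up to 0.126). Slc41a2 was called higher in KO myotubes with a log2 difference of 0.83 (SE 0.29, limma adjusted p = 0.0421), a call lost in 8 of the 16 fits with a sample left out (limma adjusted p of up to 0.109, without WT myotubes replicate 1). Slc11a2, which brings iron out of endosomes, had 101, 108, 82.1 and 72.2 in WT myoblasts and 183, 125, 119 and 151 in WT myotubes. KO myoblasts had 62.99, 78.9, 85.9 and 65.9 and KO myotubes 184, 128, 137 and 182. It rose by log2 0.66 (SE 0.20, limma adjusted p = 0.0201) in WT and log2 1.09 (SE 0.20, limma adjusted p = 0.000247) in KO cells. Myotubes were higher in every sample, and the WT call was lost without WT myoblasts replicate 3 or 4, or WT myotubes replicate 1 or 4 (limma adjusted p of up to 0.0839).

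Ion carriers numbered 20, and 9 were called higher on differentiation in each genotype and none lower (1 in WT and 0 in KO cells at an unadjusted p under 0.05 in limma), with medians of 0.85 in WT and 0.75 in KO cells. Over all genes, 13.8% were called higher and 9.16% lower in WT cells, and 17.3% and 16.1% in KO cells. With a sample left out, 6 to 11 ion carriers were called higher in WT and 7 to 11 in KO cells, with 6 in WT cells without WT myoblasts replicate 4. Slc4a7, a sodium bicarbonate cotransporter that takes in base, had 122, 173, 155 and 98.9 in WT myoblasts and 402, 239, 342 and 229.9 in WT myotubes, a log2 difference of 1.13 (SE 0.20, limma adjusted p = 0.000395). KO myoblasts had 104, 100.4, 139.7 and 121 and KO myotubes 227, 198, 195 and 204, a log2 difference of 0.83 (SE 0.20, limma adjusted p = 0.003399). Myotubes were above myoblasts throughout. Slc9a9, an endosomal sodium-proton exchanger, had 36.9, 50.2, 56.04 and 33.9 in WT and 20.1, 9.96, 27.8 and 28.4 in KO myoblasts, lower in each KO sample. In WT myotubes it had 157, 68.4, 132 and 100.1 and in KO myotubes 151, 128, 77.4 and 75.9, which overlapped. Its rises were log2 1.31 (SE 0.33, limma adjusted p = 0.00616) in WT and log2 2.31 (SE 0.33, limma adjusted p = 1.33e-05) in KO cells. The myoblast difference of log2 -1.08 (SE 0.33, limma adjusted p = 0.0266) was lost without KO myoblasts replicate 1 or 2, or WT myoblasts replicate 2 or 3 (limma adjusted p of up to 0.104).

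The sodium-potassium-chloride cotransporter Slc12a2, which loads cells with chloride, had 109.8, 99.3, 98.1 and 63.3 in WT myoblasts and 420.5, 246, 405 and 332 in WT myotubes, a log2 difference of 1.91 (SE 0.26, limma adjusted p = 2.18e-05). KO myoblasts had 81.4, 41.5, 107 and 55.9 and KO myotubes 194, 143, 112 and 169.8, a log2 difference of 1.16 (SE 0.26, limma adjusted p = 0.00188). All KO myotube samples were below all WT myotube samples, with a log2 difference of -1.18 (SE 0.26, limma adjusted p = 0.00259). Slc24a3, a potassium-dependent sodium-calcium exchanger, went the other way, with 24.9, 27, 18.01 and 14.3 in WT and 55.1, 39.02, 78.9 and 59.2 in KO myoblasts. In WT myotubes it had 44.03, 44.98, 63.2 and 55.5 and in KO myotubes 164, 210.1, 158 and 172. No KO sample overlapped WT at the same stage, and the differences were log2 1.42 (SE 0.24, limma adjusted p = 0.000211) in myoblasts and log2 1.75 (SE 0.24, limma adjusted p = 2.83e-05) in myotubes. The phosphate carriers Slc20a1 and Slc20a2 were called in no comparison.

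**Figure D3:**
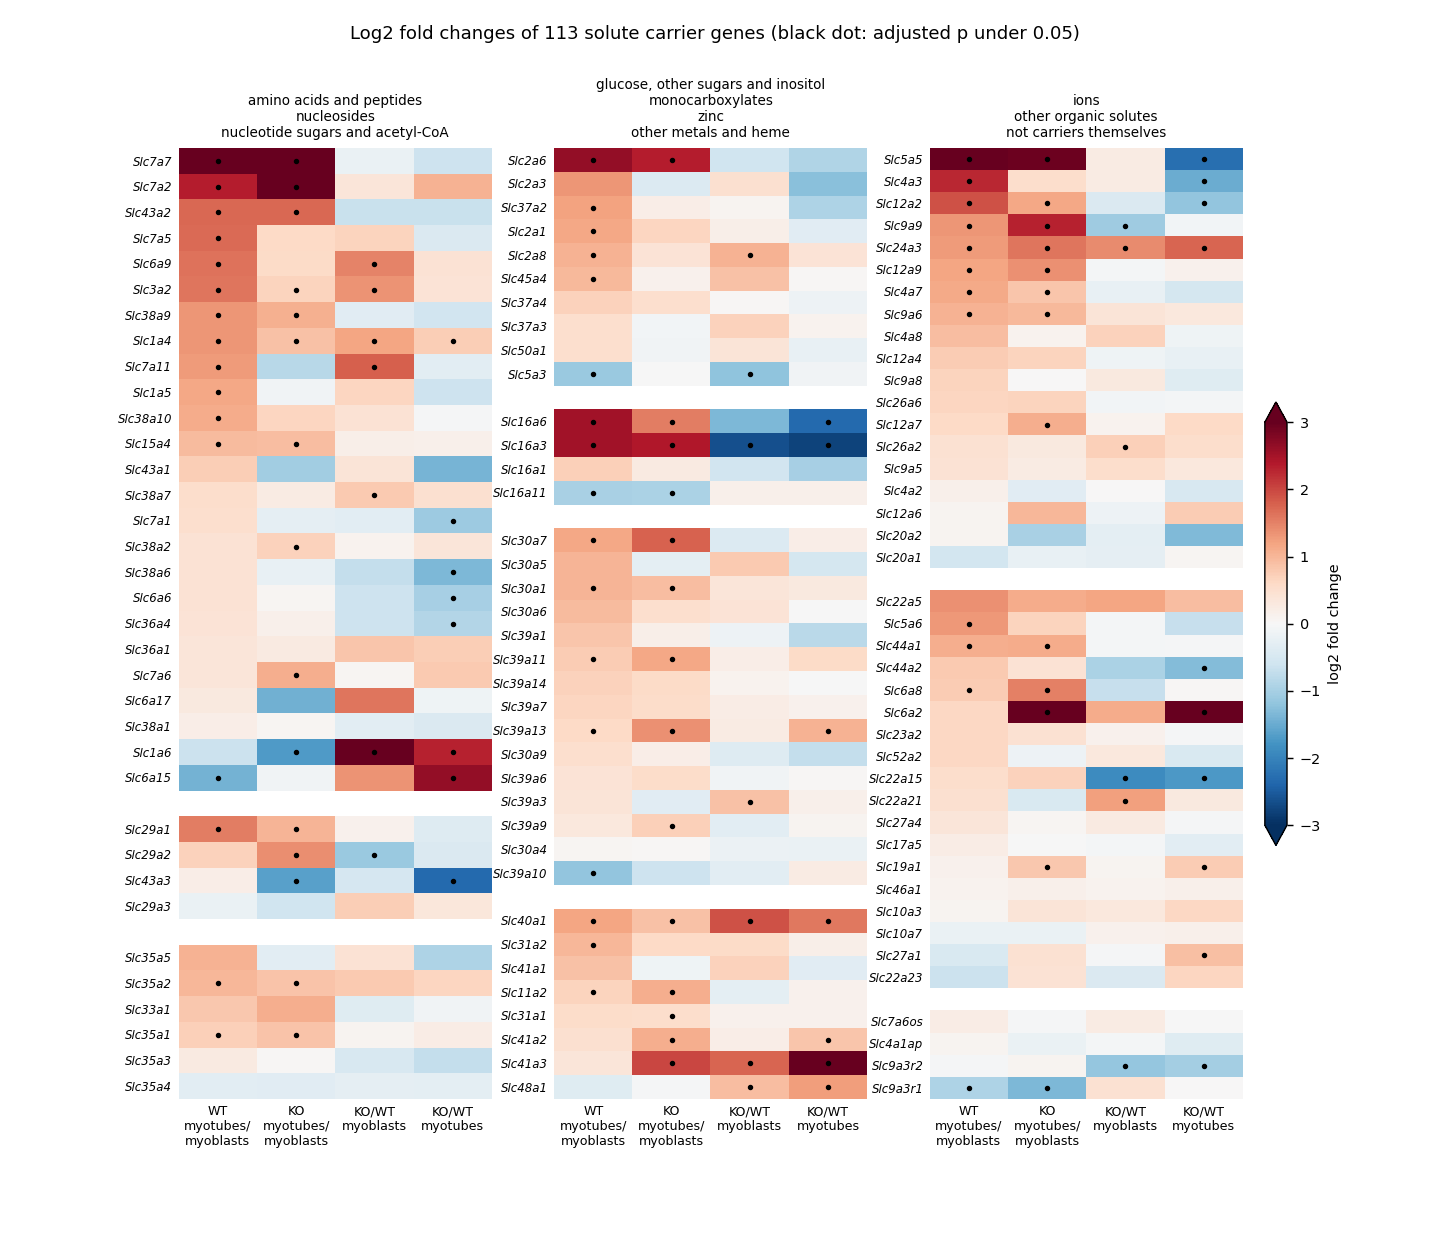
Log2 fold changes (colour scale, saturated at -3 and 3) of 113 of the 114 members (rows, in blocks in the order of the substrates named above each panel, sorted by the WT change) in the 4 comparisons (columns); a black dot marks an adjusted p under 0.05. The columns for differentiation in WT and KO cells are mostly red. Of the 114 members 41 and 39 were called higher there, beside 13.8% and 17.3% of all genes. By genotype, 20 of the 114 were called in myoblasts and 25 in myotubes, beside 15.8% and 23.4% of all genes.

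Whether differentiation changed a carrier differently in the 2 genotypes was tested by the interaction. It was called for 2 of 114 members, both with a smaller rise in KO cells. Among all genes, 1.48% were called in that direction and 1.97% in the other. An unadjusted p under 0.05 in limma was found for 20 members, and the share of all genes at that threshold was not counted. Slc5a5 (ENSMUSG00000000792, chr8:70882889-70892757, minus strand), the sodium-iodide symporter, had 1.85, 1.93, 1.001 and 0.891 in WT myoblasts and 141, 70.2, 116 and 104 in WT myotubes, at least 35.9-fold higher. In KO myoblasts it had 2.62, 1.66, 2.603 and 0.834 and in KO myotubes 26.1, 21.9, 11.7 and 27.97, at least 8.35-fold higher. Slc5a5 passed the level filter only through the myotubes of both genotypes, so these stage differences were built into its choice. No KO myotube sample came near the WT myotube range, and the interaction was log2 -2.53 (SE 0.54, limma adjusted p = 0.00964). No myoblast sample of either genotype had more than 3 reads of Slc5a5. Its interaction is therefore largely a restatement of its genotype difference in myotubes, given below. Slc4a3 (ENSMUSG00000006576, chr1:75546266-75562172, plus strand), the chloride-bicarbonate exchanger of heart and other excitable tissue, had 22.1, 31.8, 25.02 and 18.7 in WT myoblasts and 130.4, 94.5, 159.8 and 103 in WT myotubes. KO myoblasts had 33.2, 22.4, 38.2 and 23.4 and KO myotubes 48.4, 49.6, 29.7 and 41.96. The WT stages were far apart while those of KO cells overlapped, and the interaction was log2 -1.74 (SE 0.37, limma adjusted p = 0.00873). Both genes were lower in KO than WT myotubes, by a log2 difference of -2.27 (SE 0.38, limma adjusted p = 0.000199) for Slc5a5 and log2 -1.50 (SE 0.26, limma adjusted p = 0.000273) for Slc4a3. Next in order, and not called, were Slc7a11 with a log2 difference of -2.11 (SE 0.61, limma adjusted p = 0.0618), Slc27a1 with a log2 difference of 0.92 (SE 0.27, limma adjusted p = 0.0634), Slc5a3 with a log2 difference of 1.10 (SE 0.33, limma adjusted p = 0.0658) and Slc1a5 with a log2 difference of -1.28 (SE 0.38, limma adjusted p = 0.0692).

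**Figure D4:**
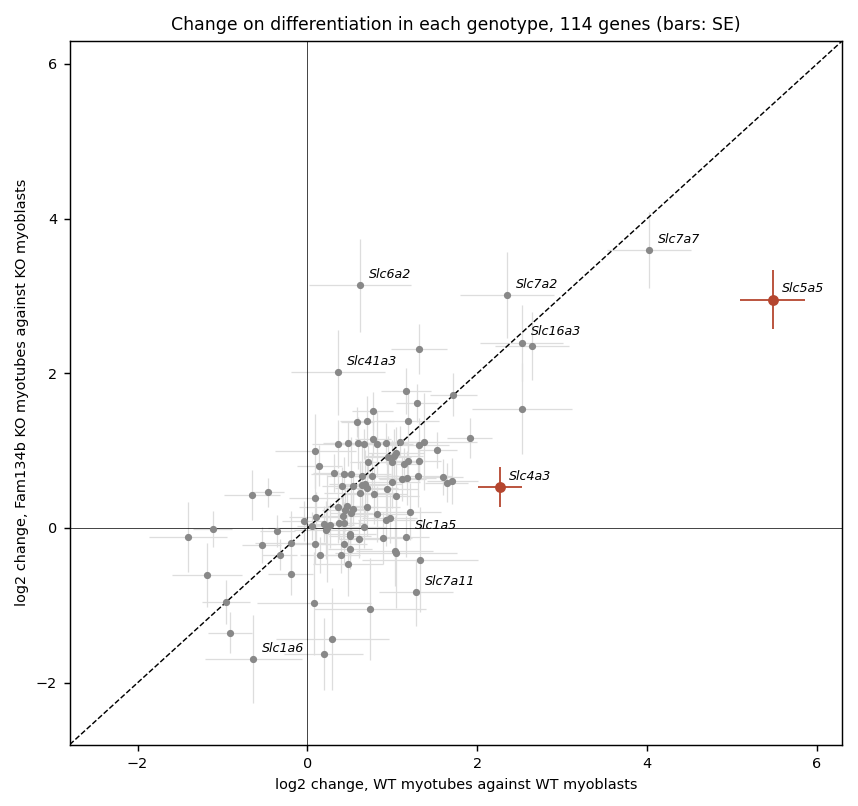
Log2 change from myoblasts to myotubes in WT cells (horizontal axis) and in Fam134b KO cells (vertical axis) for the 114 members; points are genes, bars are SE, the dashed line marks equal change, and red marks the 2 genes called in the interaction. Slc5a5 (5.48 in WT, 2.95 in KO) and Slc4a3 (2.27 in WT, 0.53 in KO) lie below the line. The stage changes of Slc5a5 were built into its choice.

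Carriers of other organic solutes numbered 18, of which 3 were called higher in WT myotubes (median 0.50) and 4 in KO myotubes (median 0.44), none lower (1 and 0 at an unadjusted p under 0.05 in limma). These counts lay near the 13.8% and 17.3% of all genes called higher, and with a sample left out they ran from 1 to 4 and from 3 to 5. Slc6a8, the creatine carrier, had 185, 116, 151 and 175 in WT myoblasts and 175, 304, 263 and 339.8 in WT myotubes, in which replicate 1 overlapped the myoblasts, with a log2 difference of 0.77 (SE 0.25, limma adjusted p = 0.0299), lost without WT myoblasts replicate 2 or 3, or WT myotubes replicate 2, 3 or 4 (limma adjusted p of up to 0.104). In KO cells it rose from 105, 68.1, 139.7 and 80.1 to 288, 376, 194 and 258 without overlap, a log2 difference of 1.51 (SE 0.25, limma adjusted p = 7.82e-05). The choline carrier Slc44a1 rose in WT (95.96, 107, 65.05 and 83.8 to 189.9, 146, 205 and 210) and KO cells (87.5, 81.4, 102 and 64.2 to 209, 212, 163 and 146), by log2 1.09 (SE 0.20, limma adjusted p = 0.000506) in WT and log2 1.12 (SE 0.20, limma adjusted p = 0.000215) in KO cells. The changes differed by log2 0.02 (95% interval -0.57 to 0.61). Its relative Slc44a2 was lower in KO myotubes (361, 474, 113 and 176) than in WT myotubes (733, 492, 658 and 528), with a log2 difference of -1.30 (SE 0.38, limma adjusted p = 0.0184), lost without KO myotubes replicate 3 or 4, or WT myotubes replicate 3 (limma adjusted p of up to 0.0757).

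Slc22a15, an organic cation carrier, had 22.1, 26.04, 25.02 and 17.8 in WT and 4.37, 3.32, 10.4 and 5.01 in KO myoblasts, a log2 difference of -1.90 (SE 0.47, limma adjusted p = 0.00706). In WT myotubes it had 33.7, 35.1, 26.95 and 35.7 and in KO myotubes 13.6, 4.38, 3.599 and 29.97, a log2 difference of -1.71 (SE 0.47, limma adjusted p = 0.0119). KO samples were lower throughout in myoblasts, and KO replicate 4 reached the WT range in myotubes. The fatty acid carrier Slc27a1 had 40.6, 46.8, 36.2 and 46.6 in WT and 83.3, 93.4, 71.97 and 71.9 in KO myotubes, all KO samples higher, with a log2 difference of 0.90 (SE 0.19, limma adjusted p = 0.00175). Slc6a2, the noradrenaline carrier, had 22.3, 13.1, 28.8 and 23.98 in KO myotubes and at most 3 reads in every WT sample, at least 7.42-fold higher than in WT myotubes, a difference built into its choice. The folate carrier Slc19a1 had 274, 226, 105 and 91.9 in KO myotubes, where replicates 1 and 2 stood apart, and 97.6, 89.96, 95.7 and 86.2 in WT myotubes, with a log2 difference of 0.76 (SE 0.26, limma adjusted p = 0.0419), lost in 10 of the 16 fits with a sample left out (limma adjusted p of up to 0.162, without KO myotubes replicate 1). Slc22a5 and Slc22a21, both of the carnitine carrier family, share over 83% of the 31-base stretches at the ends of their transcripts, so their reads may be split between them. Slc22a5 was called nowhere, and the call of Slc22a21 in KO myoblasts (1.22 on the log2 scale) was lost in 11 of the 16 fits with a sample left out (limma adjusted p of up to 0.123, without KO myoblasts replicate 4).

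Of the 6 carriers of nucleotide sugars and acetyl-CoA, which feed glycosylation in the Golgi and acetylation in the ER, Slc35a1 (CMP-sialic acid) and Slc35a2 (UDP-galactose) were called higher on differentiation in both genotypes and none by genotype (1 in myoblasts and 2 in myotubes at an unadjusted p under 0.05 in limma). Over all genes, 13.8% were called higher on differentiation in WT and 17.3% in KO cells. By genotype, 15.8% of all genes were called in myoblasts and 23.4% in myotubes. Slc35a1 rose by log2 0.71 (SE 0.21, limma adjusted p = 0.0197) in WT and log2 0.86 (SE 0.21, limma adjusted p = 0.00389) in KO cells. Without WT myotubes replicate 1, or without WT myoblasts replicate 3, neither was called in WT cells. The KO call of Slc35a2 was lost without KO myoblasts replicate 1, 2 or 4, or KO myotubes replicate 1 or 4 (limma adjusted p of up to 0.112). Among the 4 genes that are not carriers, the scaffold Slc9a3r1 had 109.8, 97.4, 126 and 141 in WT myoblasts and 57.8, 106, 52.04 and 45.6 in WT myotubes, a log2 difference of -0.91 (SE 0.26, limma adjusted p = 0.0158), lost without WT myoblasts replicate 4, or WT myotubes replicate 3 or 4 (limma adjusted p of up to 0.0646). It fell in KO cells by a log2 change of -1.35 (SE 0.26, limma adjusted p = 0.000452). Slc9a3r2 was lower in KO myoblasts (47.2, 22.4, 34.7 and 45.05 against 85.8, 64.6, 72.1 and 107 in WT), a log2 difference of -1.15 (SE 0.26, limma adjusted p = 0.00296), and in KO myotubes, a log2 difference of -1.01 (SE 0.26, limma adjusted p = 0.006697).

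The proteins that carriers depend on were read from a list of 29 genes, of which 17 passed the level filter. On differentiation 6 of the 17 were called higher and 2 lower in WT cells, and 7 higher and 1 lower in KO cells, beside 13.8% and 9.16% of all genes in WT and 17.3% and 16.1% in KO cells. Between genotypes 1 was called higher and 2 lower in myoblasts, where 15.8% of all genes were called, and 3 higher and 4 lower in myotubes, where 23.4% were. Bsg, the chaperone of the lactate carriers, had 266, 186, 238 and 157 in WT myoblasts and 604, 439.9, 594 and 448 in WT myotubes, a log2 difference of 1.31 (SE 0.24, limma adjusted p = 0.000491). KO myoblasts had 230.1, 123, 293 and 202 and KO myotubes 517, 546, 318 and 364, a log2 difference of 1.07 (SE 0.24, limma adjusted p = 0.00178), and no genotype difference was called, with a log2 value of -0.28 in myotubes (95% interval -0.78 to 0.22). Myotubes thus had more Bsg in both genotypes, while Slc16a3 differed between them.

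The sodium pump sets the gradient that many carriers use. Its beta subunit Atp1b1 had 80.3, 73.3, 78.1 and 45.5 in WT and 13.1, 30.7, 31.2 and 20.02 in KO myoblasts. In WT myotubes it had 199, 125, 119.9 and 129 and in KO myotubes 21.3, 42.3, 28.8 and 35.97. KO samples were lower at both stages, by log2 -1.55 (SE 0.29, limma adjusted p = 0.000558) in myoblasts and log2 -2.14 (SE 0.29, limma adjusted p = 2.22e-05) in myotubes.

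Beside the iron exporter, the ferritin light chain Ftl1 fell on differentiation by a log2 change of -1.99 (SE 0.37, limma adjusted p = 0.0005097) in WT and log2 -2.45 (SE 0.37, limma adjusted p = 2.56e-05) in KO cells. The heavy chain Fth1 had 11867, 14930.3, 11505 and 13576 in WT and 22867, 16608, 27748 and 33568 in KO myotubes, higher in each KO sample, with a log2 difference of 0.92 (SE 0.25, limma adjusted p = 0.0109). Tfrc, the transferrin receptor, had 617, 351, 481 and 678 in WT against 278, 268, 289.7 and 306 in KO myotubes, lower in each KO sample, with a log2 difference of -0.85 (SE 0.23, limma adjusted p = 0.0105). Steap3, the endosomal iron reductase, had 104, 35.1, 44.6 and 46.6 in WT against 273, 127, 133 and 104 in KO myotubes, the highest WT and the lowest KO sample being level, with a log2 difference of 1.48 (SE 0.36, limma adjusted p = 0.00456). Of the zinc-binding metallothioneins, Mt1 differed by log2 -0.76 (SE 0.23, limma adjusted p = 0.0196) between the WT stages and by log2 0.70 (SE 0.23, limma adjusted p = 0.0301) between KO and WT myotubes. Mt2 and the zinc sensor Mtf1 were called in no comparison.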

How the data were processed

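Gene expression was measured by 3′ digital mRNA-seq of total RNA in 16 C2C12 samples, 4 per group, and the titles gave each sample's genotype and stage. Per the labels and the study's methods, the authors made base calls with bcl2fastq, trimmed reads with bbduk, aligned them to mm10 with STAR 2.6.0a and counted them on genes with HTSeq. The table holds log2 values, for which the authors divided each count by a factor of the sample, added 1 and took the log2. Every value above 0 is a whole multiple of 1 step per sample within 0.01, from which the reads were recovered for depth and floors only (1484750 to 3287461 reads on genes per sample). The strand setting of the count is not given in the sources used here.

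The 10767 genes in which 4 or more of the 16 samples had a normalized count of 10 or above were fitted with limma 3.58.1 in R 4.3.3 (lmFit, contrasts.fit, eBayes with trend), with 4 group means, no covariates and 12 residual degrees of freedom, and p-values were adjusted by Benjamini-Hochberg over all genes tested, with calls below 0.05. The procedure was tested on simulated data with 200 changed genes. Where no sample of the lower group exceeded 3 reads, a fold is a lower bound computed against that floor, which covers counting error only. Members, substrate groups, partner genes and tests were chosen with earlier results of these data known. Named genes are, per substrate group and comparison, up to 3 called members with the largest positive and up to 3 with the largest negative log2 fold change, a list of well-known carriers, the partner genes and members called in the interaction. Some of these are not reported here. Positions come from GENCODE on GRCm38 and promoter windows from RefSeq on GRCm38.p6. Alternatives tried were 2 other pseudocounts (0.5 and 5), a filter of 50 or none, 3 other scalings, the replicate number as a block, only the samples compared, sample weights, each sample left out in turn and, added after seeing the data, KO myotubes without replicates 2 and 4.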

Additional observations from a re-analysis of the deposited data

Results flagged for a closer look

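In 246 groups of 4 samples examined, 17 held a sample whose gap to the nearest of the others passed Dixon's 95% critical value for 4 samples, which chance passes in about 1 of 20 groups. WT myotubes replicate 1 was the high sample for Slc16a3 (169), Slc29a1 (1089), Slc2a8 (94.1) and Slc39a13 (279). WT myoblasts replicate 1 was high for Slc16a3 (24.0), and replicate 4 was low for Slc39a14 (15.2) and Slc7a1 (88.2). WT myotubes replicate 3 was low for Slc29a2 (35.3). KO myoblasts replicate 2 was high for Slc3a2 (607) and Slc41a3 (32.4) and low for Slc43a2 (9.13), replicate 3 was high for Slc37a2 (24.3), and replicate 4 was low for Slc20a1 (72.6) and high for Slc27a1 (66.7). KO myotubes replicate 1 was high for Slc41a3 (93.9) and Slc6a9 (282), and replicate 3 was low for Slc43a2 (35.1). These are normalized counts.

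The change on differentiation differed between the genotypes for 2 members by the test of the interaction, with a log2 difference of -2.53 (SE 0.54, limma adjusted p = 0.00964) for Slc5a5 and log2 -1.74 (SE 0.37, limma adjusted p = 0.00873) for Slc4a3. For both, the negative sign means a smaller rise in KO than in WT cells, and both kept the call in every alternative in which they were tested. The rises of Slc5a5 were built into its choice, and its interaction largely restates its genotype difference in myotubes.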

How the results depend on the processing

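The counts of members called were 46, 43, 20, 25 and 2 for differentiation in WT, differentiation in KO, genotype in myoblasts, genotype in myotubes and the interaction. Sample weights gave 70 for differentiation in WT, 39 for genotype in myoblasts and 7 for the interaction. Leaving out single samples gave counts that ran from 30 to 51, 31 to 43, 15 to 23, 21 to 28 and 2 to 4, the lowest WT count of 30 being without WT myotubes replicate 1 (31 without WT myoblasts replicate 4) and the interaction count of 4 without KO myotubes replicate 1 or 2. Without KO myotubes replicates 2 and 4, an alternative chosen after seeing the data, they were 57, 40, 26, 22 and 3. With the replicate block they were 47, 43, 21, 24 and 3; same-numbered samples shared only a number, the mean correlation of their deviations being 0.0330 (range -0.223 to 0.369 over 24 pairs), and 0 samples correlated best with their own number in every other group. Of 325 values of named genes, 118 were called, 78 of these kept the call in each of the 27 alternatives that tested them, and none reversed. A minimum of 50 left 71 members to test. A fit of only the samples compared gave no value for the interaction, which needs all 4 groups. The cause of these shifts was not tested. Depth limits low carriers: in KO myotubes replicate 4 a floor of 3 reads is a normalized count of 5.99.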
